A study of Mus musculus with 12 samples.

Results

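The steroid-metabolizing enzymes of mouse liver described here are 9 genes, Hsd3b2, Hsd3b3, Hsd3b5, Hsd11b1, Hsd17b2, Hsd17b6, Srd5a1, Akr1c6 and Akr1c20, taken by name out of the 41325 genes listed for each library. They were selected on values measured in these same libraries, so their own levels and fold changes are given as a description, with no test. The study sequenced 12 liver RNA libraries of mice, all C57BL/6J and wild type in genotype. The CDDO-Me group held 4 libraries of mice with nonalcoholic steatohepatitis (NASH), in which a fat-laden liver becomes inflamed and scarred, that were fed the CDAHFD diet and dosed orally with 10 mg/kg CDDO-Me, also called bardoxolone methyl, over 8 weeks. The NASH vehicle group held 4 libraries of mice on that diet that received vehicle, and the control group held 4 libraries of mice without NASH that received vehicle. Age and sex are not given in the labels used, nor is the diet of the control mice. CDDO-Me is a synthetic triterpenoid known to activate the transcription factor NRF2. The labels number the replicates but do not say that each is a separate animal, so p-values measure the spread between these libraries, which may be technical in part.

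The liver receives steroid hormones from the blood and changes them by oxidizing, reducing, hydroxylating and conjugating them before excretion. Hydroxysteroid dehydrogenases interconvert alcohols and ketones on the steroid ring and so switch hormones between strong and weak forms, 5-alpha-reductase and the AKR1D and AKR1C aldo-keto reductases reduce the ring or its ketones, and cytochromes P450, UDP-glucuronosyltransferases and sulfotransferases make the products soluble. Several of these genes are known in the mouse for levels that differ between males and females under the pattern of growth hormone release, Hsd3b5 as a male-type gene among them.

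By role, Hsd3b2 and Hsd3b3 belong to the 3-beta-hydroxysteroid dehydrogenases, which in their classical form make ketosteroids out of hydroxysteroids, and Hsd3b5 encodes a liver form of the mouse that works as a ketosteroid reductase. Hsd11b1 regenerates active glucocorticoid out of its inactive ketone. Hsd17b2 oxidizes, and so weakens, estradiol and testosterone. Hsd17b6 oxidizes androgen metabolites and resembles retinol dehydrogenases. Srd5a1 is a steroid 5-alpha-reductase, Akr1c6 is a mouse reductase of 17-ketosteroids, and Akr1c20 is an aldo-keto reductase of the same subfamily. Coordinates are those of GRCm38. The 3 Hsd3b genes lie on the minus strand of chromosome 3, Hsd3b5 at 98618634 to 98630252, Hsd3b2 at 98709255 to 98724543 and Hsd3b3 at 98741523 to 98763127. Akr1c6 (4434306 to 4457877, plus strand) and Akr1c20 (4486849 to 4523345, minus strand) are neighbours on chromosome 13, which also holds Srd5a1 (69573449 to 69611442, minus strand). Hsd11b1 lies on chromosome 1 (193221634 to 193264075, minus strand), Hsd17b2 on chromosome 8 (117701904 to 117759027, plus strand) and Hsd17b6 on chromosome 10 (127990936 to 128007611, minus strand).

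The 3 Hsd3b genes are close relatives, and the letters in front of their transcription starts are shown because the genes differ so much in level between the groups. The 250 bases upstream of the start, from RefSeq (GRCm38.p6), are at chr3:98645535-98645784 for Hsd3b5, chr3:98762411-98762660 for Hsd3b3 and chr3:98724544-98724793 for Hsd3b2, all read 5′ to 3′ on the minus strand. In the first 2, capitals mark the longest stretch they share, 24 identical bases. In Hsd3b2, capitals mark its longest identical stretch with Hsd3b5, 8 bases.
Hsd3b5 upstream: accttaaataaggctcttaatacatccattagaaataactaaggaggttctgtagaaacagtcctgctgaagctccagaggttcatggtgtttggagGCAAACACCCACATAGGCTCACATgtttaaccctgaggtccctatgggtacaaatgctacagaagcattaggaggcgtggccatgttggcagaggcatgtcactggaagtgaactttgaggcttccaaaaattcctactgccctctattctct
Hsd3b3 upstream: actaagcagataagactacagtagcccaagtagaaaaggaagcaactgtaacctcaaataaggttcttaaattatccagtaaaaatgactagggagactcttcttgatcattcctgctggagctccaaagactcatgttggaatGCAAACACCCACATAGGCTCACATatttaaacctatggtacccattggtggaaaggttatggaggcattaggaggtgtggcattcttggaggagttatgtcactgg
Hsd3b2 upstream: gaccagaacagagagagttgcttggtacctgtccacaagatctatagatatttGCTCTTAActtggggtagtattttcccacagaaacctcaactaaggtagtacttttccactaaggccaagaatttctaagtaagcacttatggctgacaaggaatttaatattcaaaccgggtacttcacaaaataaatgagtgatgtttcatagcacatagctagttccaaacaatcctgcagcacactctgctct
In a pairwise alignment, Hsd3b5 and Hsd3b3 were identical at 153 of 200 aligned bases (76.5%), and Hsd3b5 and Hsd3b2 at 136 of 215 (63.3%). RefSeq gives Hsd3b3 a second start, whose window was 99.6% identical with the one shown. The RefSeq start of Hsd3b5 lies farther upstream than the end of the gene in the deposited annotation, at 98630252, so its window does not adjoin the counted gene. The Hsd11b1 window searched below, chr1:193242361-193242610, lies inside the deposited gene, whose upstream end is at 193264075. Of the 9 genes, 7 had an entry in the RefSeq promoter table. Their 250 bases were searched on both strands for TTCNNNGAA (a STAT5-type site), TGACNNNGC (the core of the antioxidant response element) and AGAACA (the core of a glucocorticoid receptor site), which 7.02%, 10.2% and 16.1% of 32851 promoters hold in such a window. Hsd11b1 had 1 match to TGACNNNGC, 191 bases before the start on the reverse strand, and Hsd3b2 had 1 match to AGAACA, 246 bases before the start. Neither overlapped another of these motifs, and a match is a description of letters and not of a bound site.

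Likeness of sequence also limits how well reads can be assigned. The coding sequences of Hsd3b2 and Hsd3b3 were 95.1% identical, Hsd3b5 was 80.5% identical with Hsd3b2 and 95.2% with its untested neighbour Hsd3b4, and Akr1c6 and Akr1c20 were 92.3% identical. Over all libraries, the share of reads that mapped to a single place was 16.6% for Hsd3b2, 27.5% for Hsd3b5, 28.3% for Srd5a1, 28.4% for Hsd3b3 and 64.8% for Hsd11b1, against at least 96.1% for the other 4 genes. Hsd3b2 and Hsd3b3 share a stretch of 105 bases with Zfp697, which spans them on the other strand, and Srd5a1 shares 477 bases, 36.7% of its coding sequence, with Gm17108, which overlaps it on the same strand. Zfp697 also overlaps Hsd3b5. Nsun2 overlaps Srd5a1 on the other strand, and with Gm17108 it held 29340 reads over all libraries, against 26380 of Srd5a1. Hsd11b1 is overlapped by 4930570N18Rik and Lamb3 on the other strand and by Gm38118 on the same strand. For Hsd3b5 and Hsd11b1 no alignment of at least 75 bases at 98% identity was found in the transcripts of another gene. The search kept only alignments with that identity over their whole length. Relatives such as Hsd3b2 and Hsd3b3, or Hsd3b5 and Hsd3b4, could therefore be missed by it. Hsd3b4 had few reads, 0.0% of them unique. The place of the shared reads of Hsd3b5 and Hsd11b1 was thus not settled. Levels of these 5 genes are therefore uncertain, and values on unique reads are given beside some of theirs. The strand setting of the kit is not given in the sources used here, so reads of genes that overlap on opposite strands cannot be told apart.

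Each library held 28161057 to 33852338 gene reads, and all 9 genes passed the filter on low counts, Hsd3b5 through the control group alone, along with 16456 genes in all. CPM are read counts relative to library size after scaling by edgeR's trimmed mean of M values (TMM), and TPM are the authors' deposited transcript levels, corrected for gene length as well. Scaling bears on every comparison with control livers. With library totals alone, the median log2 fold change of all tested genes was 0.62 for NASH vehicle against control, -0.16 for CDDO-Me against NASH vehicle and 0.51 for CDDO-Me against control, where TMM gave -0.01, -0.01 and 0.03. Control 3 stood apart, with 543.1 CPM summed over 10 smooth muscle markers against a median of 33.4 CPM in the control group. Hepatocyte markers were abundant in every library. The 19 of them summed to 51160 to 76150 CPM in CDDO-Me, 51810 to 82790 CPM in NASH vehicle and 115600 to 140300 CPM in control livers. Among 9 markers of adrenal and gonadal cells, Cyp11b1 had 0, 3 and 0 reads over the CDDO-Me, NASH vehicle and control libraries. Nr5a1 had 0, 0 and 0 reads. Others were present at low levels, Star with 265, 302 and 252 reads and Cyp21a1 with 264, 246 and 134, in the same order. The 9 markers, some of which liver also expresses, summed to 285.5 to 366.0, 262.1 to 357.0 and 336.8 to 357.6 CPM. In bulk liver, fewer cells of a type and less RNA per cell cannot be told apart.

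NASH vehicle livers had lower levels than control livers of the 3 Hsd3b genes, Hsd11b1, Hsd17b2, Srd5a1 and, on the CPM scale, Akr1c6. Hsd3b5 was all but absent, at 2, 4, 6 and 8 reads in the 4 NASH vehicle libraries, against 6601, 5075, 4955 and 6416 reads in the 4 control libraries. Hsd3b2, Srd5a1, Hsd3b3, Hsd11b1 and Hsd17b2 were 5.46, 3.41, 3.15, 3.13 and 2.47 times lower in mean CPM. The size of these differences rests on the scaling: mean TPM of NASH vehicle livers were 0.323, 0.523, 0.555, 0.559 and 0.70 of those of control livers, in the same order of genes. Hsd17b6 and Akr1c20 lay within overlapping ranges.

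Pooled over the 4 libraries and scaled, the Hsd3b5 reads of NASH vehicle livers were 0.000568 of those of control livers (95% counting interval 0.000347 to 0.000877, which covers counting error only). This is 1760 times lower, with an interval of 1140 to 2880. Unique reads numbered 6 in NASH vehicle against 6344 in control libraries, and mean levels were 0.273 ± 0.141 TPM in NASH vehicle and 263 ± 41.5 TPM in control livers (SD, n = 4 each). No NASH vehicle library came near the control range, and no reads fell in its introns in NASH vehicle, against 604 intron reads in control libraries. Of the other genes of the 3-beta-HSD cluster (98499071 to 98859794), Hsd3b4, Gm10681, Hsd3b6 and Hsd3b1 had 17, 12, 4 and 1 reads over the NASH vehicle libraries against 4, 1, 11 and 4 over the control libraries, too few to test. Hsd3b6, a family member known from other mouse tissues, was thus near 0 in both groups.

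Hsd3b2 was at 16.5, 7.80, 12.5 and 10.5 CPM in the 4 NASH vehicle livers, against 75.1, 61.5, 57.6 and 63.4 CPM in the 4 control livers. Its log2 fold change was -2.45 ± 0.21 (SE). The highest NASH vehicle library was below the lowest control library, also on unique reads and on the TPM scale.

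Hsd3b3 was at 114.1, 60.6, 82.1 and 79.1 CPM in NASH vehicle livers, against 248.6, 246.8, 285.3 and 280.6 CPM in control livers, a log2 fold change of -1.66 ± 0.18, or -1.78 on unique reads. The groups did not overlap. Summed over the 3 Hsd3b genes, NASH vehicle livers held 47.4 ± 11 TPM and control livers 359.2 ± 42.6 TPM (SD, n = 4 each).

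Hsd11b1, which regenerates glucocorticoid, was at 222.4, 183.6, 170.5 and 188.6 CPM in NASH vehicle livers, against 569.5, 625.2, 647.8 and 557.3 CPM in control livers. Its log2 fold change was -1.65 ± 0.15. All NASH vehicle values lay below all control values, with unique reads in the same order. Reads in its introns were few and were not lower, at 3.08 ± 0.232 CPM in NASH vehicle and 2.62 ± 0.916 CPM in control livers.

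Hsd17b2, the oxidizer of estradiol and testosterone, averaged 91.9 ± 9.05 CPM in NASH vehicle and 227.0 ± 16.1 CPM in control livers, a log2 fold change of -1.30 ± 0.11. Srd5a1, the 5-alpha-reductase, averaged 42.4 ± 6.30 CPM in NASH vehicle and 144.6 ± 9.31 CPM in control livers, a log2 fold change of -1.77 ± 0.12 (SD, n = 4 each). Neither gene overlapped between the groups. Unique reads of Srd5a1 were 3.95 times lower in NASH vehicle livers.

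Akr1c6, the most abundant of the 9 per length in every group, depended on the scale. It averaged 724.5 ± 56.1 CPM in NASH vehicle and 1149 ± 176 CPM in control livers with no overlap, but 1036 ± 50.3 TPM in NASH vehicle and 917.5 ± 108 TPM in control livers with overlap, so its log2 fold change of -0.67 ± 0.14 turned to 0.18 on the log2(TPM + 1) scale. Akr1c20 averaged 81.7 ± 5.44 CPM in NASH vehicle and 105.6 ± 21.3 CPM in control livers, with overlap, and its log2 fold change of -0.37 ± 0.16 turned to 0.50 on the TPM scale, where the groups did not overlap. For these 2 genes the direction rests on the scaling.

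Hsd17b6 was at 106.9, 142.7, 86.8 and 86.7 CPM in NASH vehicle livers, against 87.0, 92.1, 235.4 and 102.4 CPM in control livers. The ranges overlapped, and 1 library, control 3, held the highest value of both groups. The log2 fold change was -0.29 ± 0.31, it turned to 0.17 without control 3 and to 0.62 on the TPM scale. The part of the smooth muscle and bile duct RNA of control 3 in its Hsd17b6 value was not tested.

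The call rule was an adjusted p below 0.05 in the quasi-likelihood test of edgeR, adjusted after Benjamini and Hochberg. By it, 0 of the 9 genes were past the rule as higher and 7 as lower in NASH vehicle livers, where 29.6% of all tested genes were called higher and 30.0% lower. No overlap between the groups was seen for 0 genes as higher and 7 as lower, against 27.0% and 27.4% of all tested genes. Since the genes were selected on such values, nothing is read from these counts. Their median log2 fold change was -1.65, against -0.01 over all tested genes and -1.16 over 19 hepatocyte markers, of which 17 fell, 1 rose and 1 did not pass. Macrophage markers, of which 12 of 14 rose and 1 fell, summed to 2596 to 4474 CPM in NASH vehicle and 194.1 to 303.5 CPM in control livers, and the part of such shifts in cell makeup in the levels of the 9 genes was not tested.

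**Figure D1:**
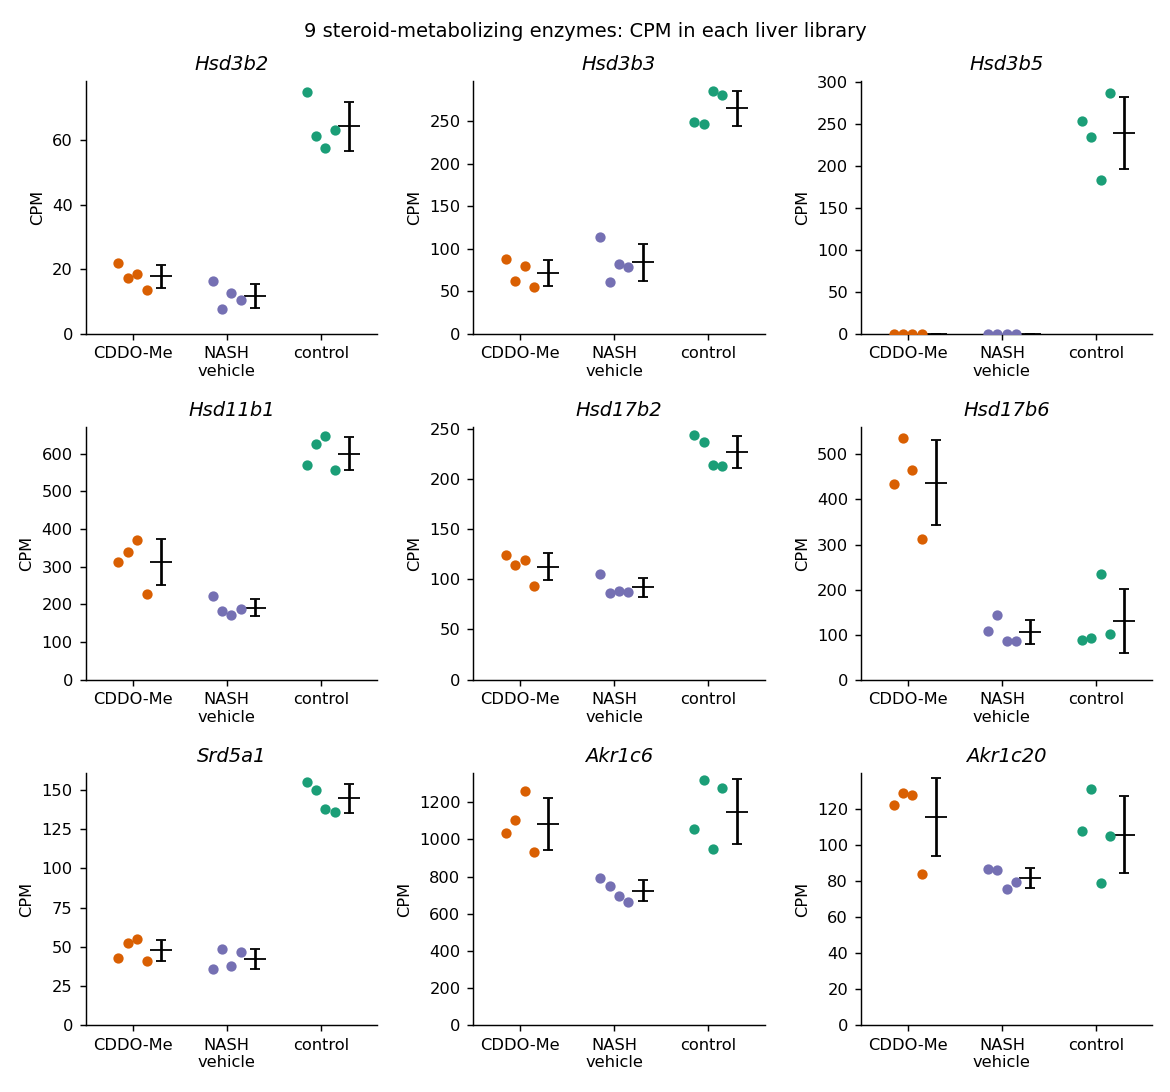
Level of each of the 9 enzymes in CPM (vertical axes, each starting at 0) in the 4 CDDO-Me, 4 NASH vehicle and 4 control livers; each point is 1 library, and the bar beside the points is the mean with SD. Hsd3b5 lies at the baseline in both NASH groups, Hsd17b6 is highest in CDDO-Me livers at 311.3 to 537.4 CPM, and control 3 stands out for Hsd17b6 at 235.4 CPM.

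CDDO-Me livers were then set against NASH vehicle livers, which asks what the compound changed in the disease model. Hsd17b6 showed the largest difference of the 9 genes, 4.13 times higher in mean CPM. Hsd11b1 and Akr1c6 were 1.63 and 1.49 times higher, also without overlap. The other 6 genes overlapped between the groups, among them Hsd3b2 and Akr1c20 at 1.51 and 1.41 times the NASH vehicle mean, and Hsd3b5 was near 0 in both.

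Hsd17b6, the oxidizer of androgen metabolites, was at 433.9, 537.4, 466.5 and 311.3 CPM in the 4 CDDO-Me livers, against 106.9, 142.7, 86.8 and 86.7 CPM in the 4 NASH vehicle livers. Its log2 fold change was 2.05 ± 0.32. All CDDO-Me values lay above all NASH vehicle values, and on the TPM scale the means were 704.1 ± 100 TPM in CDDO-Me and 195.3 ± 43.6 TPM in NASH vehicle livers. Of its reads, 96.1% mapped to a single place. Reads in its introns were higher as well, at 19.9 ± 4.61 CPM in CDDO-Me and 6.62 ± 3.54 CPM in NASH vehicle livers (SD, n = 4 each).

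Hsd11b1 was at 313.6, 338.1, 370.2 and 228.8 CPM in CDDO-Me livers, against 222.4, 183.6, 170.5 and 188.6 CPM in NASH vehicle livers, a log2 fold change of 0.71 ± 0.14. The groups did not overlap, although the lowest CDDO-Me and the highest NASH vehicle library lay close together. Its levels in TPM were 193.9 ± 20.2 in CDDO-Me and 138.2 ± 9.29 in NASH vehicle livers. Reads in its introns were not higher, at 2.47 ± 0.642 CPM in CDDO-Me and 3.08 ± 0.232 CPM in NASH vehicle livers.

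Akr1c6 averaged 1083 ± 138 CPM in CDDO-Me and 724.5 ± 56.1 CPM in NASH vehicle livers, a log2 fold change of 0.58 ± 0.14 with no overlap, also in TPM. Akr1c20, its neighbour, was at 122.2, 128.5, 127.3 and 83.6 CPM in CDDO-Me livers, against 86.3, 86.2, 75.3 and 79.1 CPM in NASH vehicle livers, a log2 fold change of 0.50 ± 0.16. CDDO-Me 4 was the only one of its group inside the NASH vehicle range. Without it the log2 fold change was 0.63.

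Hsd3b5 had 4, 0, 2 and 0 reads in the 4 CDDO-Me libraries, against 2, 4, 6 and 8 in the 4 NASH vehicle libraries. The pooled ratio was 0.347 (95% counting interval 0.114 to 0.895, which leaves out the spread between libraries). The ratio of mean CPM of unique reads was 0.172, on 1 unique read in CDDO-Me and 6 in NASH vehicle libraries. With the 8 libraries of these groups alone, Hsd3b5 did not pass the filter on low counts. The fitted log2 difference of -1.45 ± 0.73 became -2.40 without CDDO-Me 1, which held 4 of the 6 CDDO-Me reads. Both groups were far below the control livers, and the groups overlapped. Hsd3b2 averaged 17.8 ± 3.55 CPM in CDDO-Me and 11.8 ± 3.65 CPM in NASH vehicle livers, with overlap, and its log2 fold change of 0.60 ± 0.20 was 0.34 on unique reads. Hsd3b3 averaged 71.1 ± 15.2 CPM in CDDO-Me and 84.0 ± 22.2 CPM in NASH vehicle livers, a log2 fold change of -0.24 ± 0.18, or -0.15 on unique reads, with overlap. The 3 genes together held 39.4 ± 9.23 TPM in CDDO-Me and 47.4 ± 11 TPM in NASH vehicle livers, with 359.2 ± 42.6 TPM in control livers.

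Hsd17b2 averaged 112.6 ± 13.6 CPM in CDDO-Me and 91.9 ± 9.05 CPM in NASH vehicle livers (a log2 difference of 0.29 ± 0.11). Srd5a1 averaged 47.8 ± 6.89 CPM in CDDO-Me and 42.4 ± 6.30 CPM in NASH vehicle livers (a log2 difference of 0.17 ± 0.12, 0.32 on unique reads and -0.04 on the TPM scale). Both overlapped between the groups.

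Past the call rule were 4 of the 9 genes as higher (Hsd11b1, Hsd17b6, Akr1c6 and Akr1c20) and 0 as lower, where 9.39% of all tested genes were called higher and 7.24% lower. The 4 became 2 without CDDO-Me 3 or without NASH vehicle 4, and 6 without CDDO-Me 4. On log2(TPM + 0.1), 3 were past the rule as higher and 1 as lower. Without overlap were 3 as higher and 0 as lower, against 11.4% and 10.2% of all tested genes. Nothing is read from these counts either. The median log2 fold change was 0.50, against -0.01 over all tested genes and 0.12 over the hepatocyte markers, of which 3 rose, 2 fell and 14 did not pass. Macrophage markers, of which 0 of 14 rose and 10 fell, summed to 1436 to 2401 CPM in CDDO-Me and 2596 to 4474 CPM in NASH vehicle livers, and their part in these levels was not tested.

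**Figure D2:**
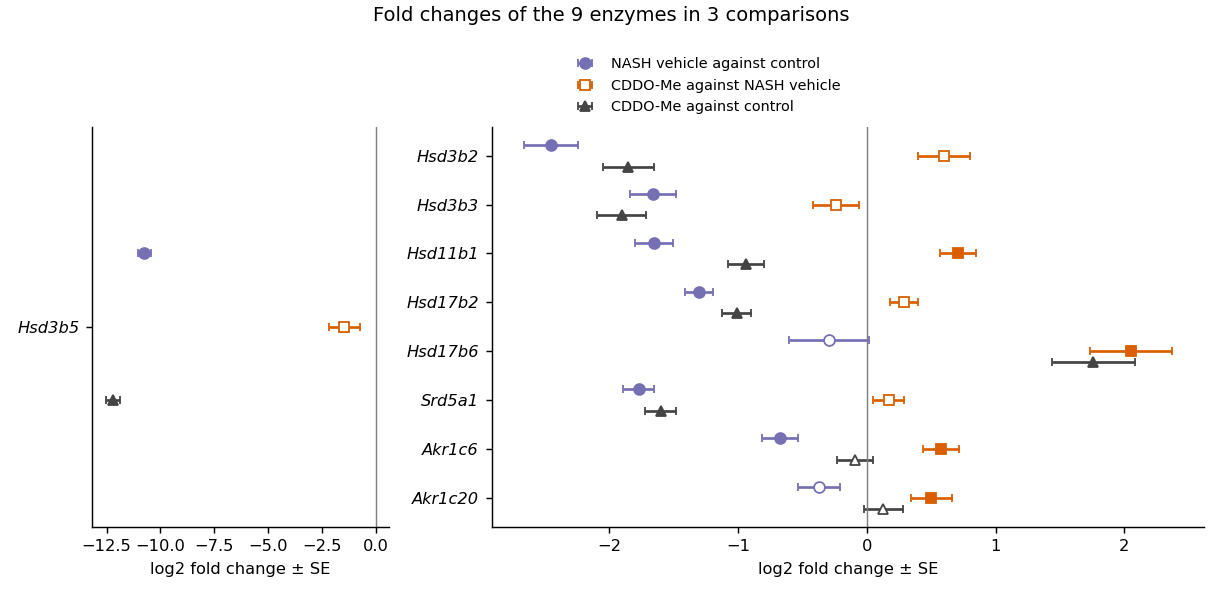
Log2 fold change of each enzyme (horizontal axes, bars are SE) in the 3 comparisons, Hsd3b5 on an axis of its own at the left; filled symbols are past the call rule. Hsd3b5 stands at -10.75 and -12.21 against control livers, and Hsd17b6 stands at 2.05 and 1.76 in CDDO-Me against NASH vehicle and CDDO-Me against control livers.

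CDDO-Me livers set against control livers show how far the levels were from those without NASH. This comparison and the other 2 share libraries in pairs, so they are not independent of each other. Hsd17b6 averaged 437.3 ± 94.4 CPM in CDDO-Me and 129.2 ± 71.1 CPM in control livers (SD, n = 4 each). Its log2 fold change was 1.76 ± 0.32, or 2.22 without control 3. The groups did not overlap even with control 3 included. Akr1c6 averaged 1083 ± 138 CPM in CDDO-Me and 1149 ± 176 CPM in control livers, and Akr1c20 averaged 115.4 ± 21.4 CPM in CDDO-Me and 105.6 ± 21.3 CPM in control livers. Both overlapped in CPM, and both were higher without overlap in TPM. The log2 fold change of Akr1c6 turned to 0.38 with library totals alone and 0.52 on the TPM scale, where it was -0.09 in CPM.

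The other 6 genes were lower than in control livers, with no overlap. Hsd11b1 averaged 312.7 ± 60.6 CPM in CDDO-Me and 600.0 ± 43.5 CPM in control livers (log2 fold change -0.94 ± 0.14), and Hsd17b2 had a log2 fold change of -1.01 ± 0.11. Srd5a1, Hsd3b2 and Hsd3b3 were 3.03, 3.61 and 3.73 times lower in mean CPM. The size of these differences rests on the scaling. For Hsd11b1 and Hsd17b2, mean TPM of CDDO-Me livers were 0.784 and 0.739 of those of control livers. For Srd5a1, Hsd3b2 and Hsd3b3 they were 0.505, 0.412 and 0.407. Hsd3b5 had 6 reads over the CDDO-Me libraries, 1 of them unique, against 23047 over the control libraries, a pooled ratio of 0.000197 (95% counting interval 0.000072 to 0.000429), and its fitted log2 fold change of -12.21 became -13.16 without CDDO-Me 1. The call rule was passed by 1 of the 9 genes as higher and by 6 as lower, where 26.2% of all tested genes were called higher and 23.6% lower, and no overlap was seen for 1 as higher and 6 as lower, against 22.6% and 21.1% of all tested genes. Nothing is read from these counts, as the genes were selected on such values. The median log2 fold change was -1.01, against 0.03 over all tested genes and -1.0 over the 19 hepatocyte markers, of which 0 rose, 16 fell and 3 did not pass. Of the 14 macrophage markers, 12 rose and 1 fell, with a median of 2.29, and they summed to 1436 to 2401 CPM in CDDO-Me and 194.1 to 303.5 CPM in control livers. The part of such shifts in these levels was not tested.

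Levels per length show which enzymes made up the RNA of the set. In TPM, the 9 genes summed to 2585 ± 164 in CDDO-Me, 1728 ± 70.0 in NASH vehicle and 2036 ± 147 in control livers (SD, n = 4 each). Akr1c6 made up 50.7% ± 2.96 of that sum in CDDO-Me, 60.0% ± 0.941 in NASH vehicle and 45.1% ± 4.04 in control livers. In control livers Hsd3b5 was next, at 263 ± 41.5 TPM, within the spread of Hsd11b1 at 247.3 ± 32.4 TPM, followed by Hsd17b2 at 190.7 ± 10.5 TPM. Hsd17b6, at 141.1 ± 90.6 TPM, could not be told apart from Hsd17b2 or from Akr1c20 at 93.8 ± 14 TPM within its spread. Srd5a1, Hsd3b3 and Hsd3b2 were lowest there, at 86.3 ± 4.21, 69.1 ± 12.2 and 27.02 ± 1.53 TPM.

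In NASH vehicle livers Hsd17b6 took the second place at 195.3 ± 43.6 TPM, and Hsd11b1, Hsd17b2 and Akr1c20 followed at 138.2 ± 9.29, 133.4 ± 9.4 and 132.3 ± 5.02 TPM, within each other's spread. In CDDO-Me livers Hsd17b6 made up 27.2% ± 2.70 of the summed TPM, against 11.3% ± 2.32 in NASH vehicle and 6.83% ± 4.05 in control livers. Hsd3b5 made up 0.00288% ± 0.00353, 0.0158% ± 0.00847 and 13% ± 2.22 in the CDDO-Me, NASH vehicle and control livers. It was the lowest of the 9 in both NASH groups. In control livers its mean TPM was the second highest, though within the spread of Hsd11b1.

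**Figure D3:**
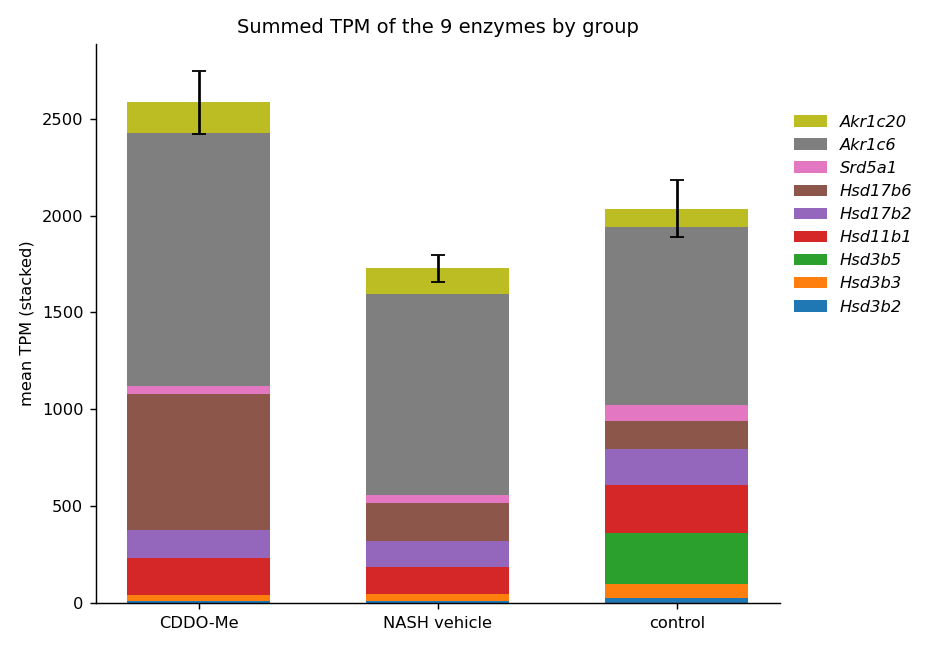
Mean TPM of the 9 enzymes stacked by group (vertical axis starting at 0), with the SD of their sum over 4 libraries. The Hsd3b5 segment is visible only in control livers, at 263 TPM, and the Hsd17b6 segment is tallest in CDDO-Me livers, at 704.1 TPM.

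The AKR1C cluster on chromosome 13 (4049011 to 4586541) holds Akr1c6 and Akr1c20 beside 6 further Akr1c genes, 5 of them tested. In NASH vehicle against control livers, 4 of the 5 fell and 1 did not pass, where 30.0% of all tested genes were called lower. Akr1c14, a hydroxysteroid dehydrogenase that reduces ketosteroids, fell to 146.0 ± 21.6 CPM in NASH vehicle livers against 444.0 ± 46.7 CPM in control livers (edgeR estimate -1.60 ± 0.19 in log2, adjusted p = 8.5e-06). Akr1c19, Akr1c12 and Akr1c13 had log2 fold changes of -2.02 ± 0.17, -1.67 ± 0.17 and -1.22 ± 0.15. In CDDO-Me against NASH vehicle livers, 4 rose and 1 fell, where 9.39% of all tested genes were called higher and 7.24% lower. Akr1c19 rose to 170.0 ± 36.9 CPM in CDDO-Me livers against 25.3 ± 3.00 CPM in NASH vehicle livers (edgeR estimate 2.75 ± 0.17 in log2, adjusted p = 5.1e-07), and Akr1c13, Akr1c14 and Akr1c12 rose by 1.41 ± 0.16, 1.26 ± 0.18 and 0.95 ± 0.17 on the log2 scale. Akr1c18, a progesterone-metabolizing family member named because it was the 1 that fell, had 8 reads over the CDDO-Me and 57 over the NASH vehicle libraries (log2 fold change -2.52 ± 0.74, edgeR adjusted p = 0.034). That call ended with no filter, with the replicate block, and without CDDO-Me 1, 3 or 4 or NASH vehicle 2, 3 or 4. Against control livers, 1 of the 5 rose, 1 fell and 3 did not pass in CDDO-Me livers, where 26.2% of all tested genes were called higher and 23.6% lower. Akr1c19 was at 0.73 ± 0.16 and Akr1c12 at -0.72 ± 0.17, a call that ended with library totals alone and on the TPM scales. Akr1c14 was at -0.34 ± 0.18, which turned to 0.12 with library totals alone. Akr1c21 had too few reads to test.

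**Figure D4:**
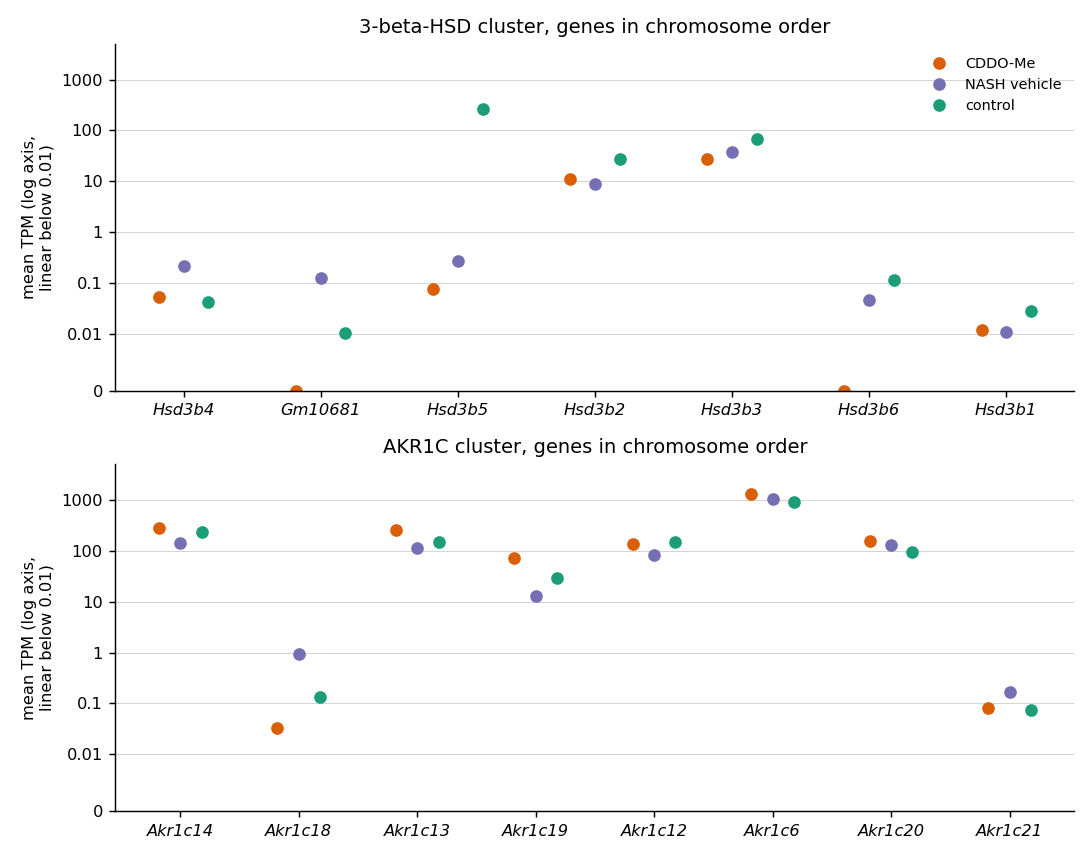
Mean TPM of the genes of the 3-beta-HSD cluster (top) and the AKR1C cluster (bottom) in chromosome order, on a log axis that is linear below 0.01, for CDDO-Me, NASH vehicle and control livers. Hsd3b5 drops out in both NASH groups between neighbours that differ less, and Akr1c6 is highest of its cluster in all 3 groups.

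The rest of steroid metabolism was described with 70 further genes in 8 lists, of which 68 were listed in the files and 57 could be tested. Rose and fell are used below of genes with an edgeR adjusted p under 0.05 over all tested genes. Every count of a list below stands beside the shares of all tested genes. These were 29.6% higher and 30.0% lower in NASH vehicle against control livers, and 9.39% and 7.24% in CDDO-Me against NASH vehicle livers. In CDDO-Me against control livers they were 26.2% and 23.6%. In NASH vehicle against control livers, 8 of the 57 rose, 38 fell and 11 did not pass, and their median fold change was -0.94 in log2 against -0.01 over all tested genes. With CDDO-Me, set against NASH vehicle, 28 rose, 2 fell and 27 did not pass, and the median was 0.74. In CDDO-Me against control livers, 14 rose, 25 fell and 18 did not pass, and the median was -0.34. The balance against control livers rests on scaling: with library totals alone, 13 rose and 28 fell in NASH vehicle livers, and 22 rose and 16 fell in CDDO-Me livers, where the median turned to 0.12. The lists were drawn up with results of these data known, so the counts describe them.

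**Figure D5:**
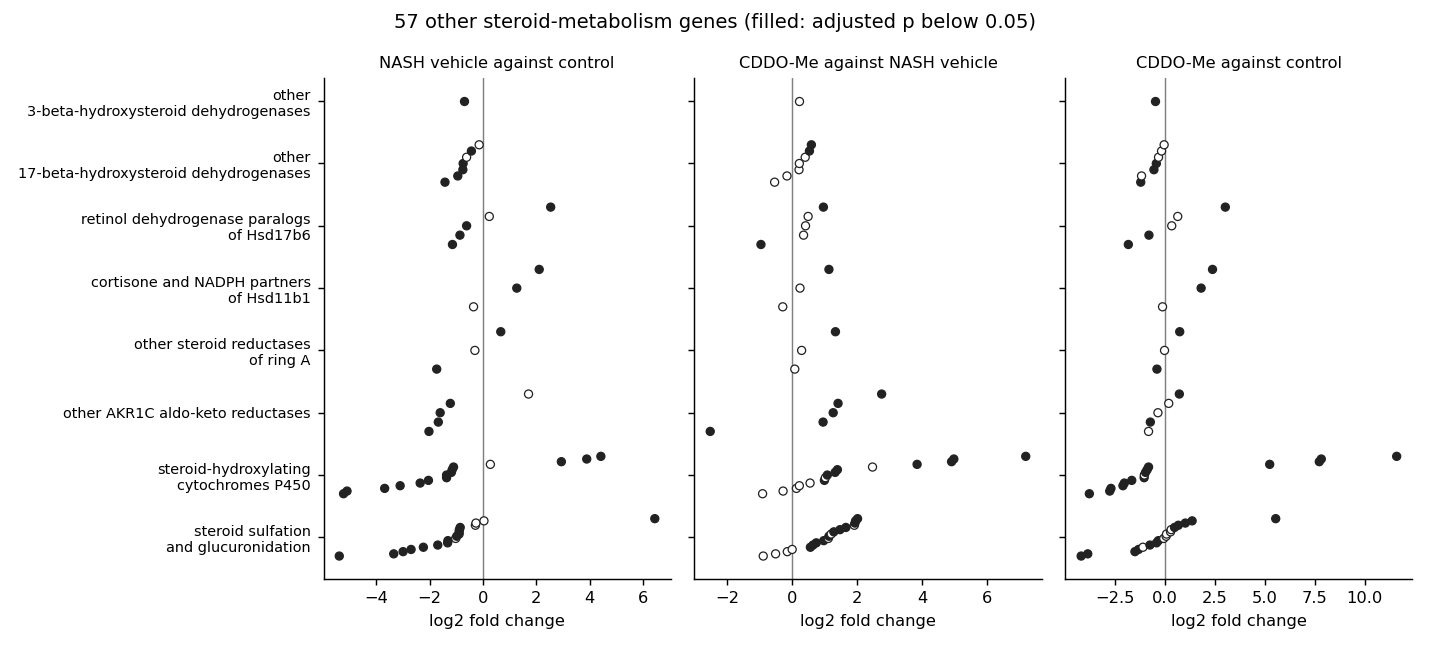
Log2 fold change (horizontal axes) of the 57 other steroid-metabolism genes in 8 lists for the 3 comparisons; each point is 1 gene, filled where the edgeR adjusted p is below 0.05. In the NASH vehicle comparison with control livers 38 filled points lie left of 0 and 8 right of it, and in the CDDO-Me comparison with NASH vehicle livers 28 lie right and 2 left.

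Hsd11b1 uses NADPH inside the endoplasmic reticulum, and a list of 4 genes of glucocorticoid inactivation and NADPH supply was drawn up beside it, 3 of them tested. H6pd, the enzyme that makes the NADPH of that compartment, named here for its role after its values were seen, did not pass, at 428.0 ± 84.9 CPM in NASH vehicle and 545.0 ± 62.6 CPM in control livers (edgeR estimate -0.35 ± 0.16 in log2, adjusted p = 0.078). Its direction and call rest on the processing: it was 0.27 with library totals alone, was called higher on log2(TPM + 1) at 0.49 (limma adjusted p = 0.0025), and was called lower without NASH vehicle 1 at -0.49. It was at 506.0 ± 87.3 CPM in CDDO-Me livers (log2 fold change 0.24 ± 0.16 against NASH vehicle, edgeR adjusted p = 0.34). The other tested genes, Pgd (log2 fold change 1.27 ± 0.13) and G6pdx (2.11 ± 0.29, with 57.5% unique reads), rose in NASH vehicle livers. They encode pentose phosphate enzymes of the cytosol, whose NADPH is a separate pool. Pgd rose again in CDDO-Me livers, to 273.0 ± 29.2 CPM against 125.0 ± 14 CPM in NASH vehicle livers (edgeR estimate 1.13 ± 0.13 in log2, adjusted p = 9.7e-05). Hsd11b2, which inactivates glucocorticoid, had 2, 8 and 30 reads over the CDDO-Me, NASH vehicle and control libraries, too few to test.

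Of 7 tested 17-beta-hydroxysteroid dehydrogenases beside the 2 described above, 5 fell and 2 did not pass in NASH vehicle livers. The mitochondrial Hsd17b10 fell by 1.42 ± 0.17 on the log2 scale and the peroxisomal Hsd17b4 by 0.94 ± 0.16, a call that ended on the TPM scale, while Hsd17b12 and Hsd17b7, at -0.74 ± 0.10 and -0.75 ± 0.16, turned to 0.09 and 0.06 on the TPM scale. In CDDO-Me livers set against NASH vehicle, 2 rose and 5 did not pass, Hsd17b7 by 0.59 ± 0.16 and Hsd17b4 by 0.53 ± 0.16, and both calls ended with library totals alone, on the TPM scale and with the replicate block. That of Hsd17b7 also ended without CDDO-Me 1 or 3 or NASH vehicle 2, 3 or 4, and that of Hsd17b4 with the size factors of DESeq2 and without CDDO-Me 2 or 3, NASH vehicle 2, 3 or 4 or control 4. Of 5 tested retinol dehydrogenase relatives of Hsd17b6, 1 rose and 3 fell in NASH vehicle livers, among them Rdh7 (-1.14 ± 0.16), Rdh16f2 (-0.86 ± 0.21) and Rdh16. The value of Rdh16, -0.61 ± 0.22, turned to 0.01 with library totals alone and to 0.16 on log2(TPM + 1). Its call also ended with no filter and without NASH vehicle 2, 3 or 4 or control 2 or 4. The call of Rdh16f2 ended with library totals alone and on the TPM scales. Rdh9, whose coding sequence was 73.3% identical with that of Hsd17b6, rose by 2.54 ± 0.19, but 5.57% of its reads were unique, so this level is uncertain. Under CDDO-Me, relative to NASH vehicle, Rdh16 rose by 0.96 ± 0.22, Rdh16f2 fell by 0.96 ± 0.21 and 3 did not pass. Hsd3b7, the family member of bile acid synthesis, had a log2 fold change of -0.69 ± 0.14 in NASH vehicle livers that turned to 0.15 on the TPM scale, with 6.01% unique reads, and did not pass in CDDO-Me against NASH vehicle livers (edgeR estimate 0.20 ± 0.14 in log2, adjusted p = 0.36).

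Of 3 tested reductases of ring A, 1 rose, 1 fell and 1 did not pass in NASH vehicle livers, and 1 rose and 2 did not pass in CDDO-Me against NASH vehicle livers. Akr1d1, the 5-beta-reductase that acts on the same ring position as Srd5a1, fell to 57.4 ± 7.90 CPM in NASH vehicle livers against 190.0 ± 3.59 CPM in control livers (edgeR estimate -1.73 ± 0.13 in log2, adjusted p = 2.4e-07). It rose to 145.0 ± 24.8 CPM in CDDO-Me livers against that NASH vehicle level (1.33 ± 0.13, edgeR adjusted p = 2.2e-05). Against control livers it was called lower in CDDO-Me livers (edgeR estimate -0.39 ± 0.13 in log2, adjusted p = 0.019), but turned to 0.06 with library totals alone, and the call ended without CDDO-Me 1 or 4. Srd5a3, a paralog of Srd5a1 that serves dolichol synthesis, rose by 0.67 ± 0.12 in NASH vehicle livers and had a log2 fold change of 0.08 ± 0.12 in CDDO-Me against NASH vehicle livers.

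Of 15 tested steroid-hydroxylating cytochromes P450, 3 rose, 11 fell and 1 did not pass in NASH vehicle livers. Cyp2c29 fell by 5.09 ± 0.20, Cyp7b1, which hydroxylates oxysterols and dehydroepiandrosterone, by 3.68 ± 0.19, Cyp2d9, a testosterone hydroxylase of male mouse liver, by 3.10 ± 0.26 and Cyp3a25 by 2.35 ± 0.15 on the log2 scale. The 3 that rose were Cyp2a4, Cyp2b9 and Cyp2b13, at 4.42 ± 0.42, 3.89 ± 0.86 and 2.94 ± 0.88, of which Cyp2b9 and Cyp2b13 were named after their values were seen. Cyp2b9 was at 21.4 CPM in NASH vehicle 1, with the rest of that group at 2.23 to 7.63 CPM, and its value was 2.96 without that library and 5.05 without control 3. In CDDO-Me against NASH vehicle livers 8 rose, 0 fell and 7 did not pass. Cyp2a4, a testosterone hydroxylase, reached 1401 ± 486 CPM in CDDO-Me livers against 9.67 ± 2.77 CPM in NASH vehicle livers (edgeR estimate 7.18 ± 0.37 in log2, adjusted p = 2.1e-07), and its relative Cyp2a5 reached 7725 ± 1420 CPM against 247.0 ± 45.6 CPM (edgeR estimate 4.97 ± 0.28 in log2, adjusted p = 2.1e-07). Cyp2b13, Cyp3a25 and Cyp7b1 rose by 4.90 ± 0.58, 1.39 ± 0.15 and 0.99 ± 0.18. Against control livers, 4 rose and 10 fell in CDDO-Me livers, Cyp2a4 by 11.60 ± 0.47 and Cyp2a5 by 5.25 ± 0.28 upward, with Cyp2c29 at -3.77 ± 0.19 and Cyp7b1 at -2.69 ± 0.18.

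Of 18 tested genes of sulfation and glucuronidation, 1 rose, 13 fell and 4 did not pass in NASH vehicle livers. The sulfotransferase Sult2a8 fell by 3.34 ± 0.27, the glucuronosyltransferases Ugt2b1 and Ugt2a3 by 2.69 ± 0.22 and 2.23 ± 0.17, and Papss2, which makes the sulfate donor, by 1.31 ± 0.13. The 1 that rose was Sult1e1, the estrogen sulfotransferase, named after its values were seen, at 7.43 ± 3.20 CPM in NASH vehicle and 0.0761 ± 0.109 CPM in control livers. With CDDO-Me, set against NASH vehicle, 11 rose, 0 fell and 7 did not pass. Ugt2b5, Ugt2b35 and Ugt2b34 rose by 2.01 ± 0.18, 1.93 ± 0.15 and 1.47 ± 0.12. Ugdh, which makes the glucuronic acid donor, rose to 640.0 ± 77.3 CPM in CDDO-Me livers against 204.0 ± 23.8 CPM in NASH vehicle livers (edgeR estimate 1.65 ± 0.14 in log2, adjusted p = 8.9e-06) and was also above control livers (1.37 ± 0.14). Sult2a8 and Papss2 stayed below control livers in the CDDO-Me group, at -3.85 ± 0.28 and -1.31 ± 0.13.

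Receptors and plasma carriers of steroids were mostly lower in NASH vehicle livers, 5 of 6 tested having fallen, against 30.0% of all tested genes. Esr1, the estrogen receptor, fell by 1.29 ± 0.16, Pgrmc1, a heme-binding membrane protein, by 1.00 ± 0.17 and Serpina6, the glucocorticoid carrier of plasma, by 0.87 ± 0.13. On the TPM scale the calls of Pgrmc1 and Serpina6 ended, and that of Serpina6 also ended with library totals alone. The glucocorticoid receptor gene Nr3c1 was called lower at 61.4 ± 3.40 CPM in NASH vehicle and 84.6 ± 7.33 CPM in control livers (edgeR estimate -0.46 ± 0.08 in log2, adjusted p = 0.00023), but turned to 0.17 with library totals alone and was called in the opposite direction, as higher, on log2(TPM + 1) at 0.34 (limma adjusted p = 0.0054). In CDDO-Me livers set against NASH vehicle, 1 rose, Pgrmc1, by 1.36 ± 0.17, and 5 did not pass, with Nr3c1 at 0.07 ± 0.08 and Esr1 at -0.14 ± 0.16. The value of Nr3c1 there was -0.08 with library totals alone, and that of Esr1 was 0.02 without NASH vehicle 1.

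Among 12 genes known to be induced by glucocorticoids, NASH vehicle livers had 4 that rose and 5 that fell, while 3 did not pass. Of all tested genes, 29.6% rose and 30.0% fell, so nothing is read from these counts. Tat, G6pc and Tdo2 were at -1.42 ± 0.18, -1.73 ± 0.24 and -1.42 ± 0.23 and the clock gene Per1 at 1.65 ± 0.24. Under CDDO-Me, relative to NASH vehicle, 2 rose, 0 fell and 10 did not pass. Tdo2, which starts tryptophan breakdown, rose by 1.40 ± 0.23, and Fkbp5, a chaperone partner of the receptor, reached 52.4 ± 6.24 CPM in CDDO-Me livers against 26.3 ± 6.06 CPM in NASH vehicle livers (edgeR estimate 0.99 ± 0.22 in log2, adjusted p = 0.0089). No steroid was measured, so these levels say nothing of hormone amounts.

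Genes known to be higher in male mouse liver were set beside Hsd3b5. Of 18 tested, 0 rose, 17 fell and 1 did not pass in NASH vehicle livers, and their median was -3.31 in log2. Of all tested genes, 30.0% fell there, and of 19 hepatocyte markers 17 fell, with a median of -1.16. Slco1a1, an organic anion transporter, fell by 4.53 ± 0.30 and Nudt7 by 3.47 ± 0.21. In CDDO-Me against NASH vehicle livers 3 rose, 6 fell and 9 did not pass, and Serpina1e, a plasma protease inhibitor, fell to 6.14 ± 1.70 CPM in CDDO-Me livers against 278.0 ± 238.0 CPM in NASH vehicle livers (edgeR estimate -5.50 ± 0.58 in log2, adjusted p = 9.0e-05), or -4.74 in log2 without NASH vehicle 1. Of 17 tested genes known to be higher in female liver, 7 rose, 7 fell and 3 did not pass in NASH vehicle livers. Cyp2c69 and Cyp2b10 were among those that fell, at -6.11 ± 0.63 and -5.22 ± 0.89 in log2. Cyp2a4, at 4.42 ± 0.42, was among those that rose. In CDDO-Me against NASH vehicle livers, 5 of the female-type genes rose, 1 fell and 11 did not pass, the 5 being 3 without CDDO-Me 2 or NASH vehicle 3 or 4. The list of cytochromes P450 shares 7 genes with the female-type list, Cyp2a4, Cyp2b9, Cyp2b10 and Cyp2b13 among them, and Cyp7b1 and Cyp2d9 with the male-type list, so these counts are not independent. Of 14 genes of growth hormone signalling, 1 rose, 10 fell and 3 did not pass in NASH vehicle livers, including Ghr, the receptor (-1.62 ± 0.16), Igf1 (-1.36 ± 0.15) and Igfals (-2.34 ± 0.17). With CDDO-Me, set against NASH vehicle, 2 rose, 3 fell and 9 did not pass. Those that rose were Nr1i3, the nuclear receptor CAR, by 1.48 ± 0.17 (40.1% unique reads), and Igfbp3, an IGF-binding protein, by 0.96 ± 0.22. The call of Igfbp3 ended on the TPM scales. Ghr was at -0.06 ± 0.16 and Igf1 at -0.53 ± 0.15, a call that ended without CDDO-Me 1 or 3 or NASH vehicle 1 or 2. The count that fell was 0 without CDDO-Me 3, and 1 without CDDO-Me 1 or 2 or any 1 of the NASH vehicle libraries.

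Likeness of profile was measured over the 12 libraries as the root mean square difference in log2 CPM, each gene centred on its own mean, among 12641 genes with a mean of at least 1 CPM. Hsd3b5 lay closest to Mup7 and Mup12, genes of major urinary proteins, at 0.76 and 1.60, with 37.3% and 23.8% of their reads unique, while the nearest of the 9 genes, Hsd3b2, was 4.12 away. Hsd17b6 lay closest to Nt5e and Ces1g, at 0.39 and 0.40, and the nearest of the 9 genes was 0.93 away. Hsd11b1 lay 0.08 away from Glo1 and 0.11 from Mdh1, Hsd17b2 lay 0.09 away from Rpusd3 and Adh4, and Akr1c6 lay 0.08 away from Thnsl2 and 0.09 from Chuk. For Hsd3b2, Hsd3b3, Srd5a1 and Akr1c20 the closest genes were Sdr9c7, Pygl, Abcb10 and Ifrd2, at 0.20, 0.18, 0.19 and 0.13. The libraries share their groups, so these distances describe profiles and carry no test.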

How the data were processed

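Liver poly(A) RNA was sequenced in 12 libraries, 4 in each of 3 groups, as 75-base paired-end reads, per the labels' protocols. The authors deposited a table per library with total and unique read counts per gene and TPM. The TPM are the authors' deposited values, scaled for depth and gene length. Reads were mapped to GRCm38, per the submitters' processing notes. The mapper, the counting rule, the counting of read pairs and the strand setting were not given in the sources used here. Total gene read counts were tested with edgeR 4.0.16 in R 4.3.3 (TMM scaling, filterByExpr at a minimum count of 10, robust quasi-likelihood fit of all 12 libraries, prior count 0.125, Benjamini-Hochberg adjustment over 16456 genes, threshold 0.05), after the test had been checked on simulated data. Few genes were changed in that simulation, equally many up and down, so it does not bear on the scaling of the comparisons with control livers. SE is that of the log2 fold change. Intervals of pooled reads are 95% and cover counting error only. Alternatives were DESeq2 1.42.0, other scalings, unique or exon reads, no filter, a replicate block, limma 3.58.1 on log2(TPM + 1) or log2(TPM + 0.1), and each library left out. Sequence comparisons used BLAST 2.17.0 and RefSeq promoters. The 9 genes and all gene lists were chosen with earlier results of these data known. Of each list, up to 4 called genes with the lowest p and a mean of at least 1 CPM in a group could be named, along with Nr3c1, Esr1, Hsd3b6, Akr1d1, Akr1c14 and Cyp7b1; exceptions are stated where they occur, and 1 gene of the rule is not reported here.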

Additional observations from a re-analysis of the deposited data

Results flagged for a closer look

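In 11 of 213 combinations of a named gene and a group, 1 library lay apart from the other 3 beyond Dixon's critical value at 95%, and chance flags about 1 in 20. Of these, 3 concerned the 9 enzymes, out of 27 combinations. Hsd17b2 was at 105 CPM in NASH vehicle 1, with the other 3 libraries of the group at 86.6 to 88.4 CPM. Hsd17b6 was at 235 CPM in control 3, with the others at 87.0 to 102 CPM, and that library also had the highest smooth muscle and bile duct marker sums of its group, whose part in the value was not tested. Akr1c20 was at 83.6 CPM in CDDO-Me 4, with the others at 122 to 128 CPM.

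NASH vehicle 1 was also the high library of its group for Rdh16 at 92.5 CPM (others 49.9 to 55.3 CPM), Ugt2a3 at 86.5 CPM (57.1 to 61.4 CPM), Tdo2 at 907 CPM (465 to 500 CPM) and C8b, a complement component on the list of male-type genes, at 161 CPM (91.6 to 95.5 CPM). Its hepatocyte marker sum, 82790 CPM, was the highest of the group. Slco1a1 was at 20.6 CPM in CDDO-Me 3 (13.4 to 14.4 CPM) and Nipal1 at 5.30 CPM in CDDO-Me 2 (2.55 to 3.01 CPM). Among control livers, Pgrmc1 was at 1980 CPM in control 2 (1620 to 1670 CPM) and Cyp2c69 at 33.5 CPM in control 1 (5.99 to 9.69 CPM).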

How the results depend on the processing

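Scaling moved the comparisons with control livers most, and the cause was not tested. For NASH vehicle against control, 4874 of all tested genes were called higher and 4945 lower, and library totals alone gave 9908 and 1326, log2(TPM + 1) 10905 and 873, and log2(TPM + 0.1) 11069 and 872. Among the other steroid-metabolism genes, library totals gave 13 higher, both TPM scales gave 16 higher and 22 lower, and the median of the 9 enzymes became -1.03 with library totals and -0.83 on both TPM scales. For CDDO-Me against control, 4317 and 3881 became 8678 and 1125, 8845 and 812, and 9243 and 817 in the same order, the other steroid-metabolism genes gave 22 and 16 with library totals and 24 and 13 on both TPM scales, and the median of the 9 became -0.54 and -0.44. For CDDO-Me against NASH vehicle, 1545 higher and 1191 lower became 926 higher with library totals, 1823 lower with DESeq2, 779 and 2607 on log2(TPM + 1) and 719 and 1968 on log2(TPM + 0.1). The median of the 9 there was 0.23 and 0.24 on the TPM scales, and the other genes called lower numbered 4 on log2(TPM + 1) and 1 with no filter or exon reads. Of calls for CDDO-Me against NASH vehicle, 56.5% were higher, but 48.3% with the 8 libraries of those groups, 47.2% with DESeq2 and 36.8% with library totals.

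Same-numbered libraries showed little joint deviation (correlations -0.223 to 0.187, 2 of 12 above 0.1). The labels do not say that the numbers mark a shared litter, batch or day, and these correlations cannot exclude one. With the replicate block, 4749 higher and 4723 lower were called for NASH vehicle against control, 1250 and 927 for CDDO-Me against NASH vehicle, with 27 and 1 of the other steroid-metabolism genes, and 4085 and 3637 for CDDO-Me against control.

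With each library left out, all-gene calls for CDDO-Me against NASH vehicle were 930 to 1972 higher and 617 to 1498 lower, with 26 to 33 and 1 to 2 of the other steroid-metabolism genes and a median of the 9 of 0.44 to 0.63. Higher calls fell below the main count by over 1.5 times without CDDO-Me 2 (937), CDDO-Me 3 (947), NASH vehicle 3 (959) or NASH vehicle 4 (930), and lower calls without these (658, 617, 740 and 639) or NASH vehicle 2 (767). Ranges were 4489 to 5241 and 4491 to 5017 for NASH vehicle against control, and 3764 to 4710 and 3358 to 3890 for CDDO-Me against control.

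Of 27 values of the 9 enzymes, 17 moved by more than 1 SD of the replicates with library totals alone, 21 on log2(TPM + 1) and 20 on log2(TPM + 0.1), where 1 more turned (Akr1c6, NASH vehicle against control), and 2 each moved on unique reads and without CDDO-Me 1. Uncalled values of the 9 that changed sign were Akr1c20 (-0.37, but 0.27 with library totals and 0.50 on log2(TPM + 1)) and Hsd17b6 (-0.29, but 0.30 and 0.62) for NASH vehicle against control, and Akr1c6 (-0.09, but 0.38 and 0.52) for CDDO-Me against control. Directions also turned for other genes. For NASH vehicle against control, library totals gave 0.01 for Rdh16, 0.17 for Nr3c1 and 0.27 for H6pd; log2(TPM + 1) gave 0.18 for Akr1c6, 0.15 for Hsd3b7, 0.09 for Hsd17b12, 0.06 for Hsd17b7, 0.16 for Rdh16, 0.34 for Nr3c1 and 0.49 for H6pd, and log2(TPM + 0.1) the same but 0.17 for Rdh16 and 0.36 for Nr3c1. On both TPM scales Nr3c1 and H6pd were called higher. For CDDO-Me against NASH vehicle, Nr3c1 was -0.08 with library totals and -0.14 on both TPM scales, and Esr1, at -0.14, ran over -0.23 to 0.02 with each library left out. For CDDO-Me against control, Akr1d1, Nr3c1 and Akr1c14 were 0.06, 0.08 and 0.12 with library totals, 0.13, 0.20 and 0.24 on log2(TPM + 1), and 0.13, 0.21 and 0.24 on log2(TPM + 0.1). Of the other values of named genes that could be compared, 2060 kept their side of the threshold, 65 lost it and 2 gained it. Depth limits Hsd3b5 in both NASH groups, at 6 and 20 reads in all.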
